A study of Mus musculus with 72 samples.

Results

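Skeletal muscle contracts when calcium leaves the sarcoplasmic reticulum and relaxes when calcium is pumped back or bound. 10 genes of this cycle were followed in gastrocnemius, a mixed and mostly fast-twitch calf muscle of the mouse. They were chosen by name for their function: Cacna1s, Ryr1, Jph1 and Trdn of the triad, the calcium store genes Casq1 and Casq2, the pump genes Atp2a1 and Atp2a2, the pump inhibitor Sln and the cytosolic buffer Pvalb. All 10 were present among the 20561 genes of the whole-gene table and the 19433 genes of the exonic and the intronic table. The muscle libraries came from 8-week-old male C57BL/6J mice under 12 h of light and 12 h of dark, which had been fasted for 24 h (18 libraries) or fed normal chow at will (18 libraries). Muscle was sampled every 4 h from Zeitgeber time (ZT) 0 to 20, ZT0 being lights on, with 3 libraries per time and feeding state, giving 12 groups and 36 libraries. Nothing in the labels says how the numbered replicates were obtained, so the spread behind each p-value may be technical. In whole muscle, fewer fibres of a type and less RNA per fibre cannot be told apart.

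In the excitation-contraction cycle, the voltage sensor Cacna1s in the T-tubule membrane opens the release channel Ryr1 in the facing reticulum membrane. Jph1 holds both membranes together, and Trdn ties Ryr1 to calsequestrin, the protein that binds calcium inside the store. SERCA pumps return calcium to the store, sarcolipin slows them, and parvalbumin takes up calcium in the cytosol of fast fibres. Introns are removed soon after transcription, so intronic signal largely reflects unspliced precursor RNA and exonic signal mature mRNA.

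Gene positions are on mm10. Cacna1s lies on chromosome 1 (136052750 to 136119822, plus strand), Ryr1 on chromosome 7 (29003344 to 29125179, minus), Jph1 on chromosome 1 (16964560 to 17097889, minus) and Trdn on chromosome 10 (33080554 to 33476709, plus). Casq1 lies on chromosome 1 (172209894 to 172219868, minus), Casq2 on chromosome 3 (102086415 to 102146514, plus), Atp2a1 on chromosome 7 (126445858 to 126463108, minus) and Atp2a2 on chromosome 5 (122453513 to 122502225, minus). Sln lies on chromosome 9 (53850164 to 53854560, plus) and Pvalb on chromosome 15 (78191114 to 78206400, minus). The library kit does not mark strand, so reads of overlapping genes are joined to those of the gene on the other strand. The protein-coding gene Rabep2 overlaps Atp2a1, non-coding antisense models overlap Ryr1, Cacna1s, Casq1, Jph1 and Trdn, and sense intronic models lie within Casq2, which makes the intronic values of these genes less certain than those of Pvalb, which no other model overlaps.

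RefSeq promoter windows (GRCm38.p6, 250 bases before to 50 after the start) were found for 6 of the 10 genes. Those of 4 genes whose introns fell furthest or changed with time, and that of Casq2, the paralog of Casq1, are shown so that the promoters behind the intronic values can be read. They are printed 5′ to 3′ on the strand of the gene, and capitals mark letters that match a searched motif: the E-box CANNTG bound by myogenic factors, and the MEF2-type motif CTAAAAATA on either strand. The windows are chr1:172219846-172220145 (minus strand) for Casq1, chr15:78206351-78206650 (minus) for Pvalb, chr1:136052561-136052860 (plus) for Cacna1s, chr7:126463024-126463323 (minus) for Atp2a1 and chr3:102086165-102086464 (plus) for Casq2.
Casq1: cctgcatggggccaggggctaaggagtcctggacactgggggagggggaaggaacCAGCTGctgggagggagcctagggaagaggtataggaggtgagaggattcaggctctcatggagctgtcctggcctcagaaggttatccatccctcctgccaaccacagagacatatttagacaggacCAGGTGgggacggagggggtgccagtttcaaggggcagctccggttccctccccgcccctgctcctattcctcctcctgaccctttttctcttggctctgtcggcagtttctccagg
Pvalb: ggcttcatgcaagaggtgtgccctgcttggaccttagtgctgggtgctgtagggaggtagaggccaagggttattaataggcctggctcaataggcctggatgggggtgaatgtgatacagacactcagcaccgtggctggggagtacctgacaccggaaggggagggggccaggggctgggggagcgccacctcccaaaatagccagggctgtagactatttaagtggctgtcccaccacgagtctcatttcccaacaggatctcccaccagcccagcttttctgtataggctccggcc
Cacna1s: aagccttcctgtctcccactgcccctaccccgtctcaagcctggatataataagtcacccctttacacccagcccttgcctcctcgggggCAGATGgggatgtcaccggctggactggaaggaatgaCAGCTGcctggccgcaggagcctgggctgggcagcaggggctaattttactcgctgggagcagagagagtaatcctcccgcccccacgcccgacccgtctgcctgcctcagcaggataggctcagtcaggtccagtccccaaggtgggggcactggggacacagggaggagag
Atp2a1: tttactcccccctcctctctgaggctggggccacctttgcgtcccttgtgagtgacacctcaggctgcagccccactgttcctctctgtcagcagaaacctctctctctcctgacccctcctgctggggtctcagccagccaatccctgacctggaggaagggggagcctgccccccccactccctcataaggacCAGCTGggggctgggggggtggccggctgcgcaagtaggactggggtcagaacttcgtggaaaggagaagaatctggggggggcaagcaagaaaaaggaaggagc
Casq2: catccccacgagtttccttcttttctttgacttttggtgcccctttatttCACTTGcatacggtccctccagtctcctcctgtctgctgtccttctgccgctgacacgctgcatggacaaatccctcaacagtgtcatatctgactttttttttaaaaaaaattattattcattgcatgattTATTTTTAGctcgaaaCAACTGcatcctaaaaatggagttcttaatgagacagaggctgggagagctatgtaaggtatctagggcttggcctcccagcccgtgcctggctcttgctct

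The Casq1 window held E-boxes beginning 195 and 67 bases before the start, the Cacna1s window 160 and 123 before it, and the Atp2a1 window one at 55. Casq2 had E-boxes beginning 200 and 52 bases before the start and, at 68, the only MEF2-type match among these windows, on the minus strand. The Pvalb window shown and the Ryr1 window held none of the searched motifs, and a second Pvalb window held 2 E-boxes and the AGAACA motif of the glucocorticoid receptor. An E-box was found in 72.3% of all 32851 RefSeq promoter windows and CTAAAAATA in 0.517%, so an E-box match says little about a single gene. None of the 6 genes had a match to CTATTTATA (0.429% of all windows), to the clock E-box CACGTG (7.15%), to the FOXO motif GTAAACA (3.65%) or to TATAAA (13.6%), and AGAACA was in 19.0% of all windows. CACGTG is itself a CANNTG match.

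Levels are in FPKM, which is per transcript length and so can be compared between genes. In fasted muscle the order of the mean whole-gene levels was Atp2a1, Pvalb, Casq1, Ryr1, Trdn, Cacna1s, Jph1, Atp2a2, Casq2 and Sln. In fed muscle it was the same but for Pvalb, which stood above Atp2a1. Neighbours whose ranges over 18 libraries overlapped were Atp2a1 and Pvalb, Ryr1 and Trdn, and Casq2 and Sln in fasted muscle. Those in fed muscle were Pvalb and Atp2a1, Ryr1 and Trdn, Trdn and Cacna1s, Jph1 and Atp2a2, and Atp2a2 and Casq2. In liver the median of every gene but Atp2a2 was at most 0.241 FPKM over 36 libraries, and that of Atp2a2, the pump of non-muscle cells too, was 43.0 FPKM.

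Depth, estimated from the steps between low values, had a median of 23.8 M reads per muscle library in the whole-gene table (range 17.2 to 28.2) and 9.58 M in the intronic table (5.44 to 12.4). The lowest whole-gene estimate, 17.2 M in fasted ZT20 replicate 1, is doubtful. The exonic estimate of that library was 26.5 M, above its whole-gene one, unlike in every other muscle library. Fast fibre markers dominated every library, with 8 of them summing to 48999 to 71458 FPKM in fasted and 58247 to 95078 FPKM in fed muscle. Of 5 cardiac markers, Ryr2, Nppa, Myh6 and Tnni3 averaged at most 0.305 FPKM in either state, and Tnnt2 averaged 1.29 FPKM in fasted and 2.03 FPKM in fed muscle and was lower in fasted muscle (limma, adjusted p = 3.70e-07). Fed muscle of ZT0 to ZT12 held liver transcripts, with Alb at 23.7 to 123 FPKM, against 0 to 2.64 FPKM in fasted muscle of all times and 0.0212 to 2.26 FPKM in fed muscle of ZT16 and ZT20. The 8 hepatocyte markers summed to 0.194 to 6.61 FPKM in fasted and 0.189 to 220.5 FPKM in fed muscle. By limma 7 of the 8 were lower in fasted muscle, as were 51.8% of all genes tested. These 7 averaged at most 0.295 FPKM in fasted and at least 2.31 FPKM in fed muscle. They passed the expression filter mostly through fed muscle, so the calls are no separate support. Main counts below were therefore also taken at ZT16 and ZT20 alone. In 4 libraries (fasted ZT4 replicate 2, fasted ZT8 replicate 4, fed ZT4 replicate 1 and fed ZT16 replicate 5) long transcripts were low and short ones high. The long Ryr1 transcript was low and the short Pvalb transcript high in these 4. Values without them are given below for Ryr1 and Jph1, among others. The slope of log2 level on log2 transcript length, relative to gene means, also tended to differ by state elsewhere. Outside the 4 it was 0.00952 to 0.0742 in fasted and -0.0384 to 0.0238 in fed muscle (whole genes). Over all 36 libraries it averaged 0.030 in fasted and -0.030 in fed muscle. Leaving out the 4 thus does not remove this difference.

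Both calsequestrin genes and parvalbumin were lower in fasted muscle, while the fast pump gene, the release channel and sarcolipin were higher and the triad genes Jph1 and Trdn did not pass the test. Of the 10 genes, 3 were higher (Ryr1, Atp2a1 and Sln) and 4 lower (Cacna1s, Casq1, Casq2 and Pvalb) in fasted muscle (limma on log2(FPKM + 0.5) with time as a factor, Benjamini-Hochberg adjusted p under 0.05 over all genes). Among the 11223 genes tested, 30.3% were higher and 51.8% lower in fasted muscle by the same rule, so a share of 7 of 10 changed is no more than that of all genes. The median change of all genes was -0.17 log2 and that of the 10 genes -0.04. With median-of-ratios scaling, which brought the median of all genes to 0.02, 5 of the 10 were higher (Ryr1, Atp2a1, Sln, Jph1 and Trdn) and 3 lower (Casq1, Casq2 and Pvalb), and 52.2% of all calls were higher in fasted muscle, against 36.9% with the deposited scale. Restricted to ZT16 and ZT20, the count was 2 higher and 3 lower, without Cacna1s (-0.053, limma, adjusted p = 0.653) and Atp2a1, whose change of 0.23 was close to that over all times (limma, adjusted p = 0.0577, 12 libraries).

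**Figure D1:**
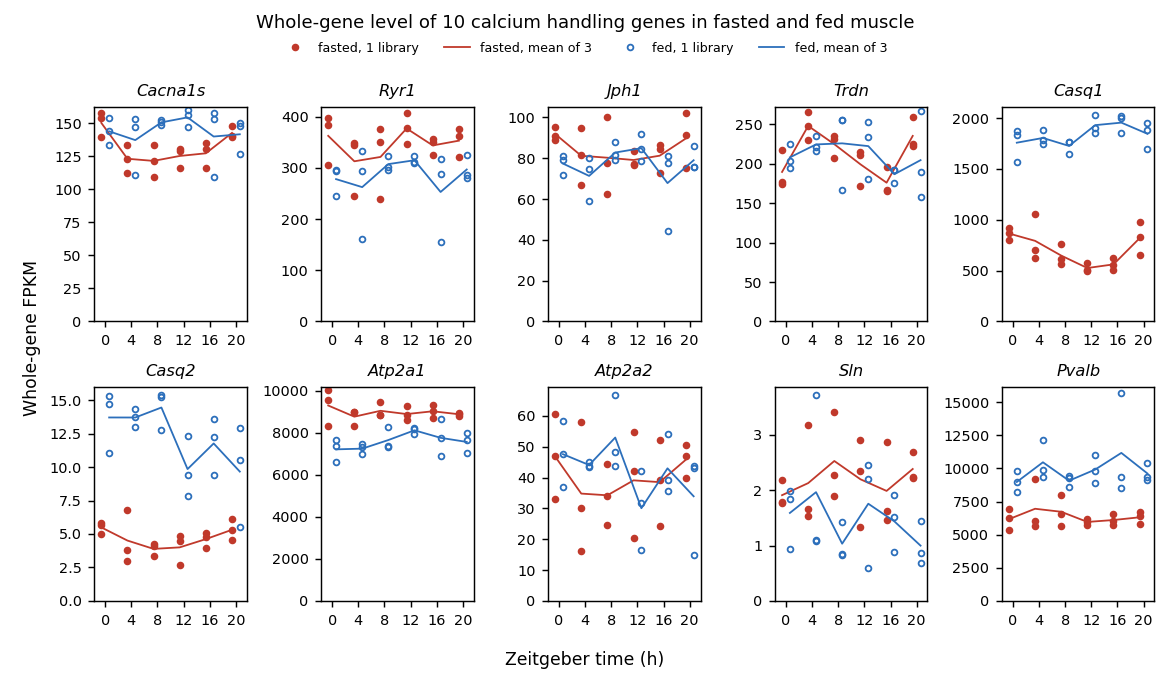
Whole-gene FPKM (vertical axis from 0) of the 10 genes in 36 muscle libraries against Zeitgeber time in hours, fasted (filled, left of each time) and fed (open, right), with lines through the means of 3 libraries. Casq1 is lower in all 18 fasted libraries than in any fed one, and the ranges of fasted and fed libraries overlap almost wholly for Trdn and Atp2a2.

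Casq1, which encodes the calsequestrin of fast fibres, lay between 496 and 1057 FPKM (median 635) in fasted muscle and between 1566 and 2032 FPKM (median 1854) in fed muscle. Every fasted library was below every fed library, as in 13.6% of all genes tested. The means were 702 ± 173 FPKM in fasted and 1837 ± 126 FPKM in fed muscle (SD, n = 18 each), a log2 change of -1.42 ± 0.08 (SE; limma, adjusted p = 1.32e-17), or 2.68-fold lower. Relative to the median of all genes the change was -1.26. Casq2, the cardiac and slow-fibre calsequestrin, was far lower in level and lay between 2.69 and 6.79 FPKM (median 4.66) in fasted and between 5.51 and 15.4 FPKM (median 12.9) in fed muscle. Its 18 fasted libraries were below all fed ones in 14 cases, the lowest fed library being one of ZT20. Its log2 change was -1.3 ± 0.11 (limma, adjusted p = 5.43e-13), so the change of both paralogs was of like size. The share of Casq2 in the sum of both averaged 0.677% ± 0.174 in fasted and 0.667% ± 0.177 in fed muscle (SD, n = 18), a difference of 0.0104 percentage points (two-sided permutation test within times, p = 0.866).

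Pvalb encodes parvalbumin, the calcium buffer that speeds relaxation of fast fibres. Its level lay between 5384 and 9183 FPKM (median 6099) in fasted and between 8185 and 15659 FPKM (median 9368) in fed muscle. In 17 of 18 fasted libraries it was below every fed library, the exception being fasted ZT4 replicate 2, one of the 4 with high short transcripts. The log2 change was -0.63 ± 0.07 (limma, adjusted p = 6.44e-10), that is 6371 ± 922 FPKM in fasted against 9867 ± 1725 FPKM in fed muscle (SD, n = 18 each). It was -0.41 with median-of-ratios scaling and -0.31 with quantile normalisation. With 1 library left out it lay between -0.66 and -0.58. The highest fed value was that of fed ZT16 replicate 5, also one of the 4. Deviations of Pvalb from group means went with the length slopes of the libraries (Pearson's r = -0.87, 36 libraries). Its change without all 4 or with the length trend removed is not reported here.

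Atp2a1 encodes SERCA1, the pump of fast fibres, and had 8311 to 10032 FPKM (median 8925) in fasted and 6606 to 8666 FPKM (median 7546) in fed muscle. In 15 of 18 fasted libraries it was above every fed library. The log2 change was 0.24 ± 0.04 (limma, adjusted p = 2.89e-07), or 1.18-fold higher, and was 0.46 with median-of-ratios scaling and 0.55 with quantile normalisation. Atp2a2, which encodes the slow-fibre and housekeeping pump SERCA2, had 16.2 to 60.6 FPKM (median 40.9) in fasted and 14.9 to 66.9 FPKM (median 43.5) in fed muscle. Its ranges overlapped almost wholly, and its log2 change of -0.08 ± 0.17 did not pass (limma, adjusted p = 0.682). Its spread went with that of the slow myosin gene Myh7 (r = 0.96 over 36 libraries, as deviations from group means), and 6 slow fibre markers summed to 198 to 700 FPKM in fasted and 115 to 1390 FPKM in fed muscle. The share of Atp2a2 in both pump genes was 0.443% ± 0.15 in fasted and 0.553% ± 0.177 in fed muscle (SD, n = 18), a difference of -0.11 percentage points that did not pass (two-sided permutation test within times, p = 0.0578), but did without any one of 8 libraries (permutation p down to 0.0201). Sln encodes sarcolipin, which uncouples pump work from calcium transport. It was scarce, at 1.34 to 3.41 FPKM (median 2.20) in fasted and 0.602 to 3.72 FPKM (median 1.26) in fed muscle. Its overlapping ranges differed by 0.51 ± 0.15 log2 (limma, adjusted p = 0.0018), or 1.43-fold higher in fasted muscle.

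Ryr1, the calcium release channel, had 239 to 406 FPKM (median 350.5) in fasted and 154 to 333 FPKM (median 296) in fed muscle. In 13 of 18 fasted libraries it was above every fed library. The log2 change was 0.29 ± 0.09 (limma, adjusted p = 0.00264) and was 0.25 (limma, adjusted p = 1.41e-06) without the 4 libraries of low long transcripts. It was 0.50 with median-of-ratios scaling and 0.14 (limma, adjusted p = 0.00566) with the length trend removed. In the exonic table its change of 0.26 ± 0.09 was lost when the trend with transcript length was removed from each library (0.03, limma, adjusted p = 0.478). Cacna1s, the pore and voltage sensor of the T-tubule calcium channel, had 110 to 158 FPKM (median 132) in fasted and 109 to 160 FPKM (median 149) in fed muscle. Its log2 change of -0.13 ± 0.05 (limma, adjusted p = 0.0183) was smaller than the median change of all genes and turned to 0.08 (limma, adjusted p = 0.226) with median-of-ratios scaling. Its ranges in both states overlapped almost wholly.

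Jph1, which bridges T-tubule and reticulum, had 62.5 to 102 FPKM (median 84.1) in fasted and 44.5 to 91.7 FPKM (median 79.1) in fed muscle. Its log2 change of 0.12 ± 0.07 did not pass (limma, adjusted p = 0.105), but did with median-of-ratios scaling (0.33, limma, adjusted p = 0.000174) and without the 4 libraries of low long transcripts (0.10, limma, adjusted p = 0.0434). Trdn, the triadin gene, had 165 to 266 FPKM (median 216) in fasted and 158 to 266 FPKM (median 210) in fed muscle. Its log2 change was 0.00 ± 0.06 (limma, adjusted p = 0.973), and 0.21 (limma, adjusted p = 0.00859) with median-of-ratios scaling.

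In the exonic table the same 3 genes were higher and the same 4 lower in fasted muscle, where 28.5% of 11017 genes tested were higher and 54% lower. The exonic changes of Casq1 (-1.48 ± 0.08), Casq2 (-1.33 ± 0.11) and Pvalb (-0.65 ± 0.07) were close to those of the whole genes.

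The introns behaved otherwise. Intronic signal of Casq1, Pvalb, Cacna1s, Ryr1 and Atp2a1 was lower in every fasted library than in any fed library, although the exons of Ryr1 and Atp2a1 were higher and those of Cacna1s fell by only 0.16 log2. Of the 9 genes that passed the filter in the intronic table, 7 were lower in fasted muscle (these 5, Jph1 and Casq2), none was higher, and Atp2a2 and Trdn did not pass the test. Jph1 (2 fasted and 13 fed values of at least 1 FPKM) and Casq2 (0 fasted and 4 fed) met the filter of 1 FPKM in 3 libraries through fed muscle, where they were high, so their calls are no support for the intronic fall. Among the 9155 genes tested, 42.9% were lower and 26.8% higher, and 6.47% had all fasted libraries below all fed ones. The median intronic change was -2.08 log2 over the 9 genes, Jph1 and Casq2 included, and -0.16 over all genes tested. By size of the fall on the log2(FPKM + 0.5) scale, Pvalb ranked 7, Casq1 9, Cacna1s 27, Ryr1 89 and Atp2a1 168 among all genes. The ratio of intronic means, fasted over fed, was 0.0523 for Pvalb, 0.0424 for Casq1, 0.0518 for Cacna1s, 0.159 for Ryr1 and 0.282 for Atp2a1. The scale thus understates the fall of Cacna1s, whose fasted values were low. The intronic table is scaled to its own total, so these changes are relative to all intronic signal of a library.

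**Figure D2:**
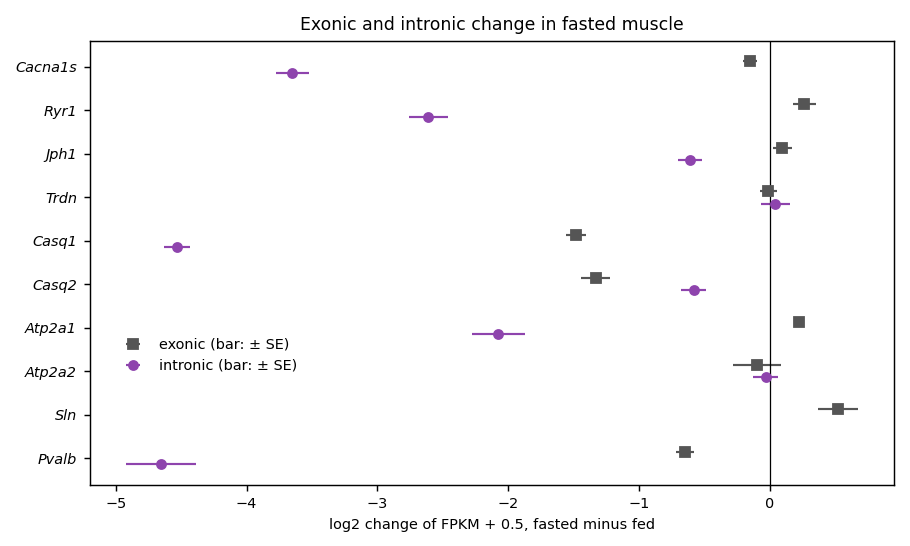
Exonic (squares) and intronic (circles) log2 change of FPKM + 0.5, fasted minus fed, with SE bars, for the 10 genes (18 libraries per state). The intronic change lies far left of the exonic change for Pvalb, Casq1, Cacna1s, Ryr1 and Atp2a1. The intronic points of Casq2, Cacna1s and Jph1 depend on the pseudocount of 0.5, and Sln has no intronic point.

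Casq1 introns had 7.09 to 18.6 FPKM (median 10.5) in fasted and 206 to 352 FPKM (median 258) in fed muscle. The log2 change was -4.53 ± 0.10 (limma, adjusted p = 9.24e-28), against -1.48 in exons. Pvalb introns had 1.16 to 39.3 FPKM (median 10.5) in fasted and 154 to 379 FPKM (median 222) in fed muscle, a log2 change of -4.65 ± 0.27 (limma, adjusted p = 1.88e-16). The intronic mean of Pvalb was 12.1 FPKM in fasted against 231 FPKM in fed muscle, while its exonic change was -0.65. Cacna1s introns had 0.0952 to 1.77 FPKM (median 0.682) in fasted and 11.8 to 16.7 FPKM (median 13.7) in fed muscle, a change of -3.65 ± 0.12 (limma, adjusted p = 1.93e-22). Its exonic change was -0.16 ± 0.05.

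Ryr1 introns had 1.00 to 7.99 FPKM (median 3.25) in fasted and 18.1 to 30.4 FPKM (median 20.1) in fed muscle. The log2 change was -2.61 ± 0.15 (limma, adjusted p = 1.18e-16), opposite in sign to that of its exons. Atp2a1 introns had 20.5 to 191 FPKM (median 91.0) in fasted and 295 to 440 FPKM (median 349) in fed muscle, a change of -2.08 ± 0.20 (limma, adjusted p = 7.51e-11), again against a higher exonic level. Jph1 introns were low, at 0.240 to 1.06 FPKM (median 0.627) in fasted and 0.600 to 1.57 FPKM (median 1.23) in fed muscle, a difference of -0.61 ± 0.09 log2, given as a description because of the filter. The ratio of the intronic means of Jph1, fasted over fed, was 0.520, so the log2(FPKM + 0.5) scale understates the difference. Restricted to ZT16 and ZT20 the Jph1 change was -0.19 (limma, adjusted p = 0.287).

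Casq2 introns were low, at 0.0679 to 0.506 FPKM (median 0.278) in fasted and 0.210 to 1.48 FPKM (median 0.621) in fed muscle. The ratio of the intronic means of Casq2 in fasted over fed muscle was 0.404, close to the exonic ratio of 0.377, and the difference of -0.58 ± 0.09 on the log2(FPKM + 0.5) scale understates it. Trdn introns had 9.0 to 20.5 FPKM (median 16.8) in fasted and 10.5 to 23.4 FPKM (median 14.3) in fed muscle, with a change of 0.04 ± 0.11 (limma, adjusted p = 0.743). Atp2a2 introns had 3.06 to 5.53 FPKM (median 3.92) in fasted and 2.22 to 6.21 FPKM (median 4.38) in fed muscle, with a change of -0.03 ± 0.10 (limma, adjusted p = 0.764). Both genes overlapped between the states in introns as in exons. Sln, whose only intron spans 3079 bases, was listed at 0 in 10 of 18 fasted and 13 of 18 fed libraries and was not tested.

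Within libraries, the exonic change exceeded the intronic one for Pvalb (4.00 ± 0.27 log2; limma, adjusted p = 3.26e-14), Cacna1s (3.50 ± 0.11; limma, adjusted p = 8.72e-23), Casq1 (3.05 ± 0.09), Ryr1 (2.87 ± 0.17), Atp2a1 (2.30 ± 0.19) and Jph1 (0.71 ± 0.08). Of 8326 genes tested for this difference, 26.9% were positive and 25.7% negative. By size, Pvalb ranked 6, Cacna1s 12, Casq1 16, Ryr1 21 and Atp2a1 31 of all genes, with the value of Cacna1s understated by the pseudocount. The value of Casq2 was -0.75 ± 0.12, but it rests on the pseudocount, being -0.37 and not past the test with a pseudocount of 0.1 (limma, adjusted p = 0.0604), and no difference between its exons and introns is read from it. Jph1 and Casq2 again entered through fed libraries, and the value of Jph1 is understated by the pseudocount too. The differences of Atp2a2 (-0.07 ± 0.14) and Trdn (-0.06 ± 0.07) were under the threshold. In the libraries of ZT16 and ZT20, when Alb in fed muscle was at most 2.26 FPKM, the 6 positive genes passed.

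**Figure D3:**
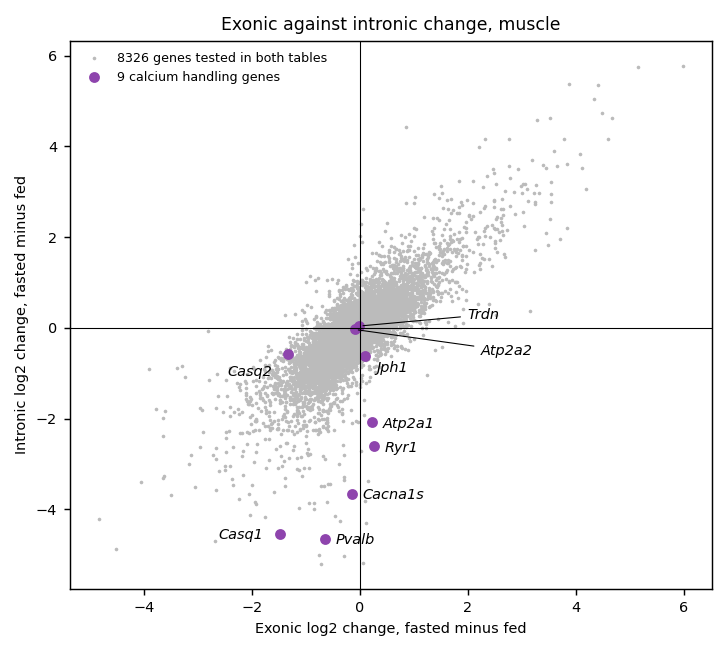
Exonic (horizontal) against intronic (vertical) log2 change, fasted minus fed, for the 8326 genes tested in both tables (grey) and the 9 calcium handling genes among them (purple). Atp2a1, Ryr1, Cacna1s, Pvalb and Casq1 lie below the main cloud, with intronic changes of -2.08 to -4.65.

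Of 8 fast fibre markers, 7 were lower in introns and 1 did not pass, with a median of -2.45 log2, where 42.9% of all genes were lower. A positive exonic minus intronic change was called for 6 of the 8, against 26.9% of all genes, while 2 did not pass. Introns of the fast troponin genes Tnnt3 (-0.25) and Tnni2 (-0.20, limma, adjusted p = 0.191) differed little. Introns of Mylpf, a fast myosin light chain gene, averaged 5.50 FPKM in fasted against 208 FPKM in fed muscle, and those of Myh4, the fast IIb myosin, 6.12 FPKM in fasted against 129 FPKM in fed muscle. Whole-gene Myh4 was 10491 ± 896 FPKM in fasted and 9664 ± 1136 FPKM in fed muscle (SD, n = 18 each). Of the 8 fast fibre markers, Myh4 was the only 1 called higher as a whole gene (0.12 ± 0.05), while 5 were lower and 2 did not pass. Among all genes 30.3% were higher and 51.8% lower. Whole-gene Mylpf averaged 7279 FPKM in fasted and 11855 FPKM in fed muscle (-0.71 ± 0.07). The introns of all 6 slow fibre markers were lower too, with a median of -1.37 log2. Among whole genes, 2 slow fibre markers (Myl2 and Myl3) were lower and 4 did not pass. With the slow marker level as a covariate, Atp2a2 passed with a change of 0.18 (limma, adjusted p = 0.037), and the other calls were the same.

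Over the day, the fall of Casq1 was deepest around lights off. Its mean in fasted muscle was 865, 793, 648, 526, 562 and 819 FPKM at ZT0, 4, 8, 12, 16 and 20. In fed muscle it was 1758, 1805, 1726, 1931, 1956 and 1846 FPKM at the same times. The log2 change thus ranged between -1.02 at ZT0 and -1.88 at ZT12, each with an SE of 0.15, and differed between times (limma F test with 5 degrees of freedom, adjusted p = 0.00776). Casq1 was the only one of the 10 genes to pass this test, against 22.9% of all genes. It did not pass with quantile normalisation (limma, adjusted p = 0.0691) or with ZT16 and ZT20 alone (limma, adjusted p = 0.118), and Cacna1s also passed with the length trend removed (limma, adjusted p = 0.0431) or without the 4 libraries of low long transcripts (limma, adjusted p = 0.02). A 24-h cosine fitted to fasted muscle had an amplitude of 0.37 log2 for Casq1 with a peak near ZT0.4 (limma F test, adjusted p = 7.80e-06), and the fed and fasted curves differed (limma F test, adjusted p = 3.05e-04).

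Cacna1s also had a 24-h rhythm in fasted muscle, with means of 150, 123, 122, 125, 127 and 143 FPKM from ZT0 to ZT20, an amplitude of 0.14 log2 and a peak near ZT21.7 (limma F test, adjusted p = 0.0395). This call was lost when any one of 9 fasted libraries was left out, with a limma adjusted p of up to 0.0914 (ZT0 replicates 1, 3 and 5, ZT8 replicates 4 and 5, ZT12 replicate 3, and ZT20 replicates 1, 2 and 5). The 2 genes rhythmic in fasted muscle compare with 47.4% of all genes tested, and Casq1, the 1 gene whose rhythm differed between the states, with 32.6%. In fed muscle 0 of the 10 genes were rhythmic by the limma F test, as 4.46% of all genes were. Before adjustment, Casq2 alone had p under 0.05 by the limma F test (adjusted p = 0.326).

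The introns of Atp2a1 also varied with time. In fasted muscle their means were 162, 113, 47.0, 42.8, 72.1 and 159 FPKM at ZT0, 4, 8, 12, 16 and 20. In fed muscle they were 316, 385, 373, 406, 308 and 327 FPKM at the same times. The intronic log2 change was -0.96 ± 0.32 at ZT0, -3.36 ± 0.32 at ZT12 and -1.06 ± 0.32 at ZT20, and differed between times (limma F test, adjusted p = 0.0016). Whole-gene Atp2a1 meanwhile stayed between mean levels of 8769 and 9300.5 FPKM in fasted muscle. Atp2a1 was the only one of 9 genes to pass this intronic test, against 5.22% of all genes.

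**Figure D4:**
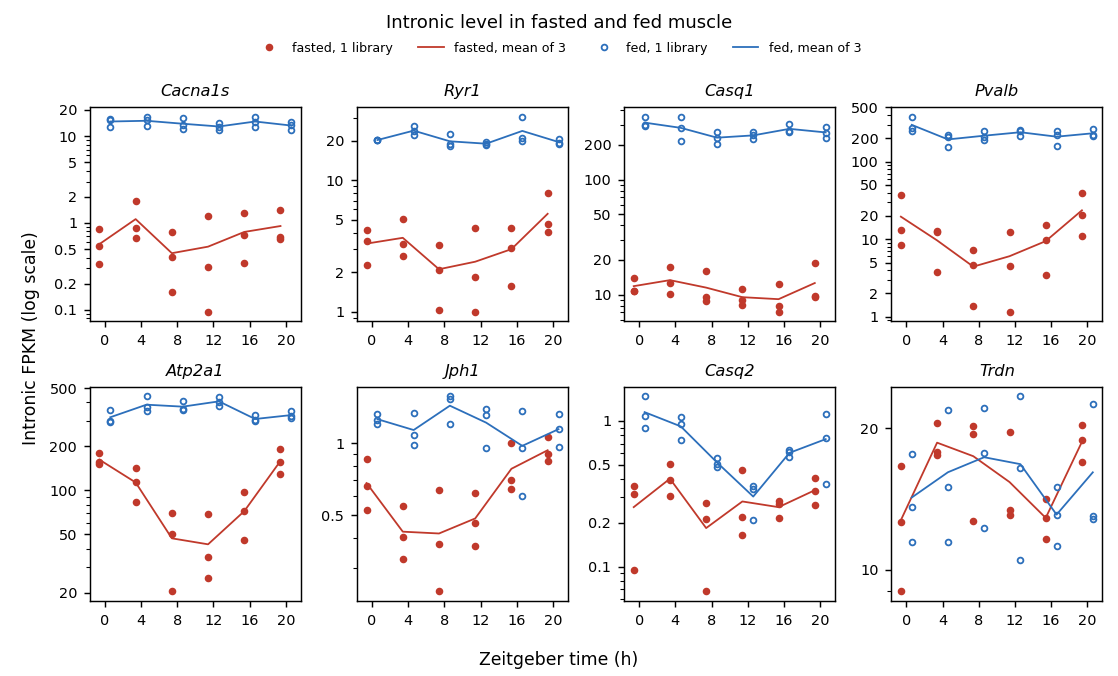
Intronic FPKM (log scale, a separate range per gene) of 8 genes in 36 muscle libraries against Zeitgeber time in hours, fasted (filled, left) and fed (open, right), with lines through means of 3 libraries. Fasted Atp2a1, Pvalb and Ryr1 are lowest on average at ZT8 and ZT12, whereas fed Casq2 is lowest at ZT12.

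In fasted muscle, 4 of the 9 genes had a 24-h intronic rhythm, against 21.7% of all genes. Atp2a1 had an amplitude of 1.16 log2 and a peak near ZT22.8 (limma F test, adjusted p = 1.13e-07), and Pvalb 1.2 log2 with a peak near ZT21.8 (adjusted p = 9.01e-04, limma). Ryr1 had 0.52 log2 near ZT21.8 (limma, adjusted p = 0.0206) and Jph1 0.35 log2 near ZT19.3 (limma, adjusted p = 0.00187). The Ryr1 call was lost without any one of 3 fasted libraries (ZT8 replicate 5, ZT12 replicate 5 or ZT20 replicate 5; adjusted p up to 0.0717, limma) and with the length trend removed (limma, adjusted p = 0.0686). The fasted curve differed from the fed one for Atp2a1 (limma F test, adjusted p = 2.46e-05) and Jph1 (limma F test, adjusted p = 0.00858), against 8.63% of all genes. Jph1 introns met the filter mostly through fed muscle and lay at 0.240 to 1.06 FPKM in fasted muscle. Both Jph1 calls are therefore given as a description.

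In fed muscle, Casq2 introns were called rhythmic (0.44 log2, peak near ZT0.3; limma F test, adjusted p = 0.00388), as were 2.32% of all genes. Their fed means were 1.15, 0.917, 0.519, 0.303, 0.604 and 0.75 FPKM at ZT0, 4, 8, 12, 16 and 20. These levels are near the filter of 1 FPKM. The values that met it were all fed ones of ZT0 (1.48 and 1.08), ZT4 (1.06) and ZT20 (1.11). They lie around the peak, so the call is no support for a rhythm.

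Other genes of muscle calcium handling and calcium signalling were taken as 8 groups of 63 genes, of which 62 were found and 57 tested. Of these, 6 were higher, 44 lower and 7 did not pass in fasted muscle, with a median of -0.40 log2 against -0.17 over all genes, of which 30.3% were higher and 51.8% lower. With median-of-ratios scaling 11 were higher and 34 lower, with a median of -0.19, and with ZT16 and ZT20 alone 5 were higher and 35 lower. The counts per group below compare with the same shares of all genes, 30.3% higher and 51.8% lower, and the groups are small. In introns, 2 of 41 were higher and 30 lower, with a median of -0.73, against 26.8% higher, 42.9% lower and a median of -0.16 over all genes. Some of the lower genes averaged under the filter of 1 FPKM in fasted muscle only. Examples are Atp2b3 (0.376 FPKM in fasted, 1.62 in fed muscle), Cav3 (0.442 and 2.60) and Orai1 (0.701 and 2.63). Calls of such genes are no support for an intronic fall.

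Among 4 partners of the voltage sensor, 3 were lower. Stac3, the adaptor that brings Cacna1s to the triad, averaged 58.4 ± 11.2 FPKM in fasted and 127 ± 9.81 FPKM in fed muscle (log2 change -1.14 ± 0.07), and the beta subunit gene Cacnb1 18.6 ± 3.21 FPKM in fasted and 38.9 ± 2.87 FPKM in fed muscle (-1.06 ± 0.06). Cacng1, the gamma subunit, fell by 0.17 ± 0.05 log2, and its change was 0.04 and under the threshold with median-of-ratios scaling. Cacna2d1, the alpha2-delta subunit, did not pass (-0.14 ± 0.08). Of 13 regulators of the release channel and lumenal proteins, 12 were tested, 11 were lower and 1, the trimeric cation channel gene Tmem38b, was higher. The calmodulin gene Calm2, whose protein binds and regulates Ryr1, averaged 26.7 ± 5.14 FPKM in fasted and 142 ± 14.4 FPKM in fed muscle (-2.41 ± 0.06). Calm3, which encodes the same protein as Calm2, changed by -1.24 ± 0.07, while Ryr3 was under the filter.

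Of 7 genes of triad and T-tubule structure, 5 were lower, 1 higher and 1 did not pass. Jph2, the junctophilin shared with heart, averaged 47.4 ± 13.7 FPKM in fasted and 210 ± 10.2 FPKM in fed muscle (-2.20 ± 0.10). Its paralog Jph1 did not pass, as given above. Sypl2, which encodes mitsugumin 29 of the triad, changed by -1.58 ± 0.08 and Cav3, the muscle caveolin, by -1.36 ± 0.09, while Dysf, the membrane repair gene dysferlin, did not pass (0.03 ± 0.07). Mrln, the pump inhibitor myoregulin, was the 1 pump regulator tested and changed by -0.48 ± 0.10, while Pln was under the filter.

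**Figure D5:**
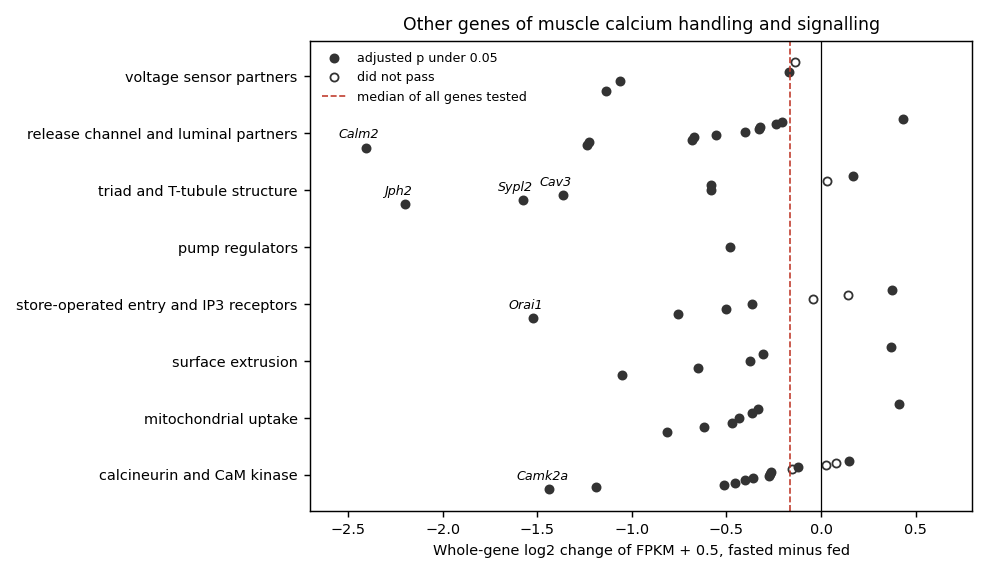
Whole-gene log2 change of FPKM + 0.5, fasted minus fed, of 57 other genes in 8 groups, filled where the adjusted p was under 0.05 (limma). Most points lie left of 0, with Calm2 and Jph2 lowest, and the dashed line is the median of all genes at -0.17.

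Of 7 store-operated entry and IP3 receptor genes tested, 4 were lower, near the 51.8% of all genes, and 1 was higher. Orai1, the plasma membrane store-operated channel, averaged 5.08 ± 1.73 FPKM in fasted and 14.9 ± 1.92 FPKM in fed muscle (-1.52 ± 0.10). The IP3 receptor genes differed, with Itpr1 lower (-0.76 ± 0.05), Itpr2 higher (0.38 ± 0.06) and Itpr3 not past the test (0.14 ± 0.08). Of 5 surface extrusion genes tested, 4 were lower, among them the plasma membrane pump gene Atp2b3 (-0.65 ± 0.07) and the exchanger gene Slc8a3 (-1.05 ± 0.14), and Slc8a1 was higher (0.37 ± 0.06). Slc8a1 averaged 1.26 FPKM in fasted and 0.868 FPKM in fed muscle, under the filter of 1 FPKM in fed muscle only, so its call is given as a description.

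Of 7 genes tested in the mitochondrial uptake group, 6 were lower and 1 higher. The higher one was Slc8b1 (0.41 ± 0.06), the mitochondrial sodium-calcium exchanger gene, which serves release rather than uptake. Mcu, the uniporter pore, changed by -0.81 ± 0.06, and its gatekeeper Micu2 by -0.62 ± 0.05. Of 14 calcineurin and CaM kinase genes, 10 were lower, 1 higher and 3 did not pass, against 51.8% lower and 30.3% higher among all genes. With median-of-ratios scaling 6 were lower and 3 higher. Camk2a (-1.44 ± 0.09) and Camk2g (-0.52 ± 0.03) were lower, while Rcan1, an inhibitor of calcineurin, did not pass (-0.15 ± 0.11). The calcineurin target Nfatc2 was also called lower (-1.19 ± 0.09). It averaged 0.623 FPKM in fasted and 2.01 FPKM in fed muscle, under the filter of 1 FPKM in fasted muscle only. Its call is therefore given as a description.

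Within groups, libraries varied in different ways for different members. The likeness of other genes was measured by Pearson's r of the deviations from the group mean over 36 libraries, as a description. Atp2a2 deviated most (SD 0.45 log2) and was most like the slow fibre genes Myh7 (r = 0.96), Tpm3 (0.90) and Tnnt1 (0.88). Casq2 was most like Plbd1 (0.85), Stom and Rcan2, and Sln like Bbip1 (0.81), Max and Hrct1. Casq1 was most like Sypl2 (0.92), Rxrg and Ak1. Pvalb was most like the short fast-fibre transcript Mylpf (0.96), Park7 and Tnnc2, while Ryr1 was like Sptb (0.97) and Tln2 (0.96), and Cacna1s like Tln2 (0.94) and Plec (0.93). Jph1 was most like Gsk3b (0.92), Mef2a and Prkaa2, Trdn like Nexn (0.76), Ccdc55 and Upf3b, and Atp2a1 like Atg9a (0.76), Rnf123 and Myh4 (0.73). The libraries' trends with transcript length enter these likenesses, and their part was not tested.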

How the data were processed

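The authors deposited 3 tables of FPKM values for whole genes, exons and introns. The unit was taken from the values, whose smallest steps shrink with gene length. Libraries were made with TRIzol RNA and the TruSeq RNA v2 kit, per the labels' protocols. Per the submitters' processing notes, the build was mm10 and CASAVA 1.8.2 was used. The aligner is not given in the sources used here. Each table was scaled to its own total. Depths were estimated from those steps, and a median of 52% of low whole-gene values lay within 0.1 of a whole read, too few to recover counts.

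The log2(FPKM + 0.5) values were fitted with limma 3.58.1 (R 4.3.3, empirical Bayes with trend) for genes of at least 1 FPKM in at least 3 of 36 muscle libraries, with Benjamini-Hochberg adjustment over the whole table and a threshold of 0.05. Fold changes on this scale understate low genes. The fasting effect was fitted with time as a 6-level factor, differences between times as the interaction of both factors, rhythms by a 24-h cosine per feeding state, and exonic minus intronic change within each library. Isoform shares were tested with 100000 permutations of feeding labels within times. The intronic tests of time and rhythm were added after the whole-gene tests had been seen. The code was tested on simulated data. No 2 libraries of a group were identical (36 pairs, r of 0.983 to 0.997).

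The 10 genes, the gene groups and the tests were chosen with earlier results of these data known. Genes named beyond the 10 were, per group, up to 3 with the smallest adjusted p and, of those that did not pass, the one of largest change, and per member the 3 with the highest r. Some genes that this rule names are not reported here. Tmem38b, Slc8b1, the markers, and Ryr3 and Pln, both under the filter, were named after their values were seen. Gene positions come from GENCODE M21 and promoters from RefSeq. Mcub was matched by its older symbol, and Strit1 was not analysed here. Python 3.11.15, NumPy 2.4.6, pandas 2.3.3, SciPy 1.17.1 and matplotlib 3.10.9 were used. Alternatives were other pseudocounts, scalings and filters, the late times alone, removal of the length trend, a replicate block, a slow fibre covariate, leaving out each library, and leaving out together the 4 libraries with a steep length trend, the last chosen after seeing the data.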

Additional observations from a re-analysis of the deposited data

Results flagged for a closer look

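For Casq1 the whole-gene fasting effect differed between the 6 times (limma F test, adjusted p = 0.00776) and the 24-h curve of fasted muscle differed from that of fed muscle (limma F test, adjusted p = 3.05e-04). The first call did not pass with quantile normalisation (limma, adjusted p = 0.0691) or with ZT16 and ZT20 alone (limma, adjusted p = 0.118), and passed without each of the 36 libraries (limma, adjusted p up to 0.0189).

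For Atp2a1 the intronic fasting effect differed between times (limma F test, adjusted p = 0.0016) and its intronic 24-h curve differed between fasted and fed muscle (limma F test, adjusted p = 2.46e-05). Rabep2 overlaps Atp2a1 on the other strand, and its part in the intronic values was not tested. For Jph1 the intronic 24-h curve differed between fasted and fed muscle (limma F test, adjusted p = 0.00858), while its effect by time did not pass (limma F test, adjusted p = 0.0843). Jph1 introns were low and met the filter mostly through fed muscle, so the difference of curves is given as a description.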

How the results depend on the processing

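The counts of the 10 genes called for the fasting effect (7 in each of the whole-gene, exonic, intronic and exonic minus intronic fits) stayed within 1.5 times of the main count in every alternative run, at 5 to 8. The count whose whole-gene effect differed between times (1) was 0 with quantile normalisation and with ZT16 and ZT20 alone, and 2, with Cacna1s added, with the length trend removed and without the 4 steep libraries. The count with a rhythm in fasted muscle (2) was 1 without a filter and with quantile normalisation, and 1 to 3 when 1 library was left out. The count whose rhythm differed (1) was 2 with median-of-ratios scaling, quantile normalisation or the replicate block, 3 with the length trend removed or without the steep libraries, and 1 to 3 when 1 library was left out. The intronic count that differed between times (1) was 0 with ZT16 and ZT20 alone and 1 to 2 when 1 library was left out.

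Signs turned only where changes were small. With median-of-ratios scaling the whole-gene log2 change was 0.077 for Cacna1s (exonic 0.075), 0.13 for Atp2a2 (exonic 0.13, intronic 0.13), 0.044 for Cacng1, 0.070 for Cacna2d1 and 0.057 for Rcan1, the exonic change of Trdn 0.22, and the exonic minus intronic change 0.00162 for Atp2a2 and 0.00122 for Trdn. With quantile normalisation it was 0.010 for exonic Trdn and 0.10 for intronic Atp2a2. With ZT16 and ZT20 alone it was 0.19 for Atp2a2 (exonic 0.20, exonic minus intronic 0.41), 0.027 for Cacna2d1 and 0.070 for exonic Trdn. With the length trend removed it was -0.038 for Trdn (intronic -0.19, exonic minus intronic 0.12) and -0.044 for Dysf. With the slow fibre covariate it was 0.18 for Atp2a2, -0.026 for Trdn and -0.00877 for Dysf. Without the steep libraries it was 0.011 for Atp2a2 (exonic minus intronic 0.035) and -0.024 for Dysf. The cause was not tested.

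With 1 library left out, the Atp2a2 share differed by -0.130 to -0.0893 percentage points (permutation p of 0.0201 to 0.111, 20000 permutations; under 0.05 without fasted ZT0 replicate 1, ZT4 replicate 4, ZT12 replicate 3, ZT16 replicate 2 or ZT20 replicate 1, or fed ZT12 replicate 1 or 3 or ZT20 replicate 5) and the Casq2 share by -0.0123 to 0.0293. The change was -0.029 to 0.023 for whole-gene Trdn, -0.046 to 0.0068 for exonic Trdn, -0.0041 to 0.050 for Dysf and -0.13 to 0.0071 for exonic minus intronic Atp2a2. Jph1 passed without fasted ZT8 replicate 4 (0.15), Cacna2d1 without fed ZT16 replicate 5 (-0.19) and Itpr3 without fasted ZT16 replicate 5 (0.17). A rhythm of Casq2 in fasted muscle was called without fed ZT20 replicate 5 (limma, adjusted p = 0.0429). The difference in rhythm was also called for Cacna1s without fasted ZT4 replicate 2 or ZT8 replicate 3 or fed ZT0 replicate 3, ZT4 replicate 1 or ZT16 replicate 5. It was called for Casq2 without fasted ZT4 replicate 4 or fed ZT12 replicate 1, ZT16 replicate 4 or 5 or ZT20 replicate 2. In introns, the effect of Jph1 differed between times without fasted ZT8 replicate 3 or fed ZT16 replicate 4, and the rhythm differed for Casq2 without fed ZT20 replicate 5 and for Pvalb without fasted ZT0 replicate 5 or ZT12 replicate 2. Deviations of same-numbered fasted and fed libraries of a time had a median r of 0.060 (12 pairs, r of -0.153 to 0.456, 4 over 0.1). The labels do not say whether the numbers pair them, and deviations from group means cannot settle it. With the replicate block 7 genes were called in each of the 4 fits, Trdn was at -0.000869, the Cacna1s rhythm in fasted muscle was lost (limma, adjusted p = 0.0617) and that of Casq2 gained (limma, adjusted p = 0.033). Introns of Sln, with an estimated median of 0 reads per library in both states, were too shallow to test.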
